A study of Mus musculus with 48 samples.

Results

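The transcription factor p53, encoded by Trp53, and 31 genes known as its regulators or targets were followed in mouse embryonic stem cells that lack, or carry catalytically deficient forms of, the histone methyltransferases Mll3 and Mll4. The 32 genes were chosen by symbol as p53, its inhibitors and its arrest, apoptosis, repair and metabolic targets. The choice was made with earlier results of these data known. They are 32 of 48321 genes in the expression table. RNA was measured in R1 cells, a male embryonic stem cell line of the 129SV strain. The 3 genotypes were wild-type (WT), Mll3/4 double knockout (dKO) and Mll3/4 catalytically deficient (dCD), with 3 libraries each. All of them grew in serum-free 2i+LIF medium, with the MEK inhibitor PD0325901 and the GSK3 inhibitor CHIR99021, on dishes coated with poly-L-ornithine and laminin, and were moved onto fibronectin before collection. Separate clones of a genotype are not named in the labels, so genotype and clone cannot be told apart. The 3 groups are called lines below. The labels do not say that replicates were separate cultures, and p-values therefore measure only how far these libraries spread, which may be technical.

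Mll3 and Mll4, encoded by Kmt2c and Kmt2d, place the monomethyl mark on lysine 4 of histone H3 at enhancers. p53 is kept low in unstressed cells by Mdm2, which marks it for degradation, and by Mdm4, which masks its activation domain. After DNA damage or other stress p53 is stabilised and activates genes that stop the cell cycle, trigger apoptosis, repair DNA and adjust metabolism. Mdm2 is itself a target, which closes a feedback loop. Mouse embryonic stem cells hold abundant p53, and p53 there is also known to act on genes of pluripotency and differentiation. RNA levels say nothing of the amount, modification or location of the p53 protein.

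Expression is given in TPM, a unit that scales reads to gene length and library size, so levels of different genes can be compared. Depth was 21090624 to 56249770 recovered reads per library, and the Pearson correlation of log2(TPM + 1) was 0.994 to 0.996 within a line and 0.94 to 0.968 between lines. All 10 embryonic stem cell markers, among them Pou5f1, Sox2 and Nanog, exceeded 1 TPM in every library. Their summed level was 14671 to 15183 TPM in WT, 7610 to 7674 in dKO and 10873 to 11221 in dCD. Dppa5a made the most of the dKO difference, with a mean of 6433 TPM in WT, 1199 in dKO and 4909 in dCD, while Klf4 rose in dKO (475 to 808 TPM) and Tfcp2l1 was not called (332 and 315 TPM). Markers of fibroblasts and feeder cells summed to 8.14 to 9.75 TPM in WT, 19.2 to 21.6 in dKO and 30.4 to 32.4 in dCD. Of the 10, 5 were below 1 TPM in every library and 0 were at 0 in all of them. Col1a1 (means of 0.470 TPM in WT, 10.2 in dKO and 7.57 in dCD) rose most in dKO. Col1a2 and Col3a1 were also called higher in both mutants. Pdgfrb (5.91, 6.60 and 11.1 TPM) was not called in dKO, and Thy1 (2.18, 0.412 and 3.39 TPM) was called lower there. Pdgfrb and Thy1 were called higher in dCD. Primitive endoderm markers summed to 9.33 to 10.9 TPM in WT, 18.1 to 19.1 in dKO and 29.2 to 31.7 in dCD. Of these 7, 1 was below 1 TPM throughout. Dab2 (means of 0.463, 1.76 and 14.2 TPM) rose most in dCD, and Dab2 and Foxa2 were called higher in both mutants. Gata6 and Sox17 were called higher only in dCD and Gata4 only in dKO, and Sox7 was called in neither. The sums of neural markers (209 to 226, 168 to 172 and 256 to 264 TPM) and trophoblast markers (53.8 to 57.4, 32.8 to 35.02 and 73.9 to 74.97 TPM) were lowest in dKO and highest in dCD. Tubb3 (means of 185.3, 85.9 and 200.8 TPM) made up most of the neural sum, and Tfap2c (54.6, 30.1 and 63.7 TPM) most of the trophoblast sum. Both, and Pax6, were called lower in dKO than in WT. Sox1 (means of 14.3 TPM in WT and 60.1 in dKO), Nes, Cdx2, Gcm1 and Hand1 were instead called higher in dKO. Whether these marker differences have a part in any result below was not tested, and in bulk RNA fewer cells of a type and less RNA per cell cannot be told apart. Kmt2c averaged 21.1 TPM in WT, 7.66 in dKO and 26.95 in dCD, and Kmt2d averaged 66.4, 82.9 and 63.2 TPM. Which part of each gene was edited is not in the labels, and the Kmt2d transcript level therefore does not check its knockout.

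Promoter sequences of the set were searched for letter matches to a p53 half-site. p53 binds DNA as a tetramer to a pair of half-sites, and the half-site consensus was searched as a 10-letter pattern that reads the same on both strands. Windows of 250 bases before to 50 bases after each start came from RefSeq (GRCm38.p6), and were found by symbol for 24 of the 32 genes. No window was found for Perp, Zmat3, Tnfrsf10b, Pmaip1, Xpc, Ddb2, Trp53inp1 or Rrm2b. The expression table was made on mm9, so only symbols were matched between the builds. Below, capitals mark each half-site letter run. A run is an exact match to a single half-site and not a whole recognition element, and a half-site with a mismatch stays in lower case. Cdkn1a is shown whole because its window, like that of Rps27l, holds 2 such runs, and shorter stretches around the run are shown for Ccng1, Mdm2, Bax, Trp53 and Ei24, which are described further on. They lie at chr17:29090729-29091028 on the plus strand (Cdkn1a), chr11:40755437-40755496 on the minus strand (Ccng1), chr10:117710910-117710969 on the minus strand (Mdm2), chr7:45467065-45467124 on the minus strand (Bax), chr11:69580259-69580318 on the plus strand (Trp53) and chr9:36797310-36797369 on the minus strand (Ei24).
Cdkn1a: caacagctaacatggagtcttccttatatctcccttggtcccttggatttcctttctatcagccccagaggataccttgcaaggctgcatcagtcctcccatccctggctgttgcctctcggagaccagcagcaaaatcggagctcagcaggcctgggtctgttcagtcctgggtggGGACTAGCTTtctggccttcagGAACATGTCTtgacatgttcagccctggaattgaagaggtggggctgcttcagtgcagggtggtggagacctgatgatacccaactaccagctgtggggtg
Ccng1: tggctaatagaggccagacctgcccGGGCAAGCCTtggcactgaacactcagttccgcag
Mdm2: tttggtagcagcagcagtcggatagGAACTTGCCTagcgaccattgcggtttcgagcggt
Bax: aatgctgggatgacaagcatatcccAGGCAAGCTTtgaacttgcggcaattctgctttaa
Trp53: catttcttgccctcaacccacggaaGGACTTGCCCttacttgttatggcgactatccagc
Ei24: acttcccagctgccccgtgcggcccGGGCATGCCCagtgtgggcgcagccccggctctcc

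The run in Trp53 lay 75 bases before its start, that in Mdm2 186, that in Ccng1 185 and that in Ei24 10. The 2 runs in Cdkn1a lay 73 and 51 bases before the upstream one of its 2 starts, which are 2790 bases apart. Those in Rps27l lay 210 and 107 bases before its start. A half-site was found in at least one window of 12 of the 24 genes (50%), against 9.55% of the 27025 genes in the promoter table. By window the shares were 38.2% of 34 windows and 8.36% of 32851 windows. Windows of the set had a median of 23 CpG and 64.7% GC, against 7 and 52.7% over all windows, so their base composition differed as well. The set was chosen as known p53 genes, so these shares are a description and not a test of the set. A letter match is a description and not a binding site, and no binding of p53 was measured.

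Trp53 RNA was abundant in all 3 lines. In WT the highest mean level of the set belonged to Rps27l at 443 TPM, followed by Trp53 at 288, Bax at 270 and Ccng1 at 137 TPM. At the other end stood Pmaip1 at 3.92, Trp73 at 3.33 and Dram1 at 0.323 TPM. The minimum for testing, 1 TPM in at least 3 of the 9 libraries, was passed by 31 of the 32 genes and by 16179 genes in all. Dram1, which takes part in autophagy, was the gene left out, with 4 to 72 reads per library. It measured 0.338, 0.426 and 0.206 TPM in WT, 0.170, 0.166 and 0.151 in dKO, and 0.908, 0.881 and 1.39 in dCD, so the dCD libraries lay above the other 6 at a level near 1 TPM.

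**Figure D1:**
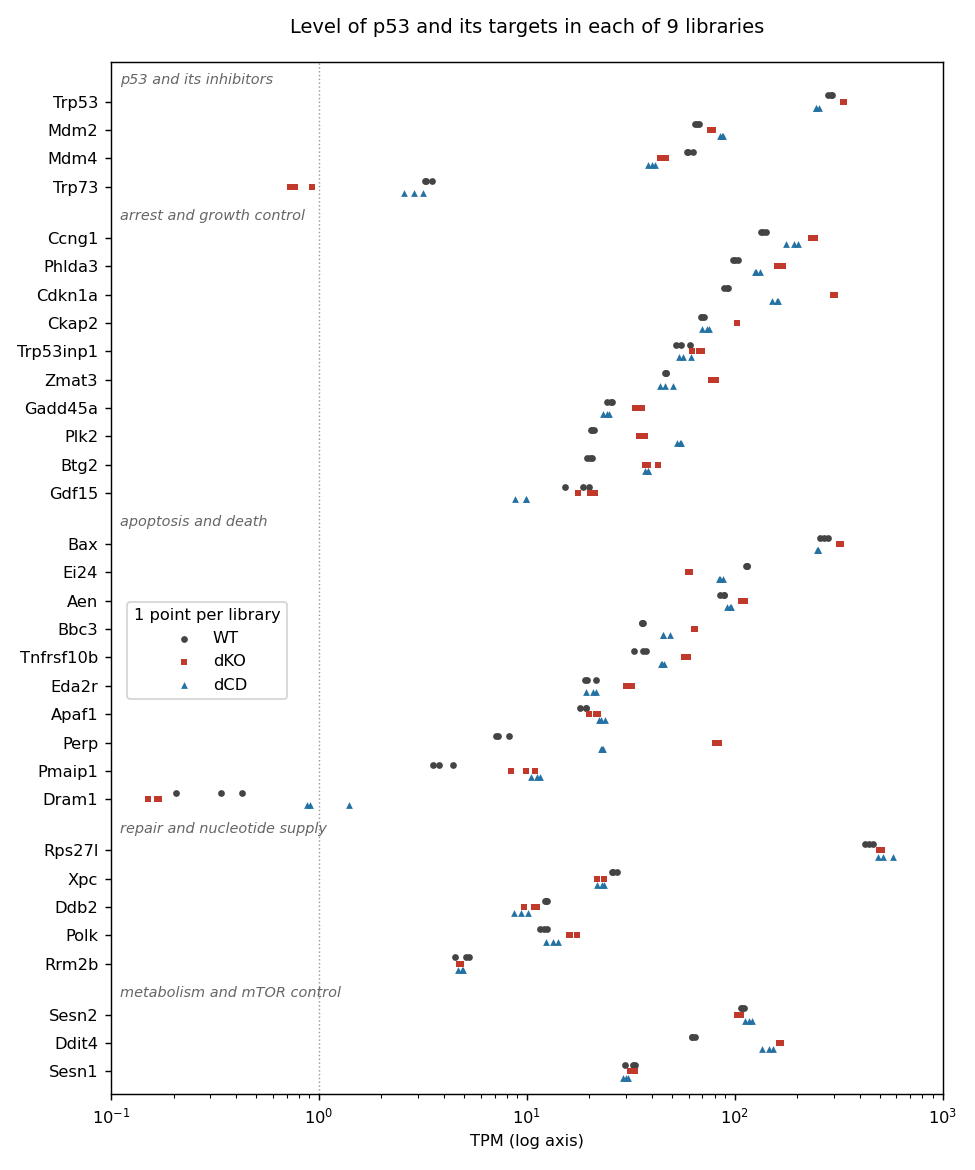
Level of each of the 32 genes in TPM (log axis) in the 9 libraries, 1 point per library, grouped by role; circles are WT, squares dKO and triangles dCD, and the dotted line marks 1 TPM. Perp and Cdkn1a show the widest gaps between the dKO and WT points on the higher side, and Trp73 on the lower side.

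Most genes of the p53 set were higher in dKO than in WT, led by Perp, Cdkn1a and Ddit4. A gene was called at a limma adjusted p (Benjamini-Hochberg, over all 16179 genes) under 0.05 on log2(TPM + 1). In dKO minus WT, 22 of the 31 were called higher (71.0%), beside 43.4% of all tested genes, and 5 lower (16.1%), beside 28.4%. The median log2 fold change was 0.32 for the set and 0.10 for all tested genes. Because the set was chosen with earlier results known, these shares and medians are a description and not a test of the set. Changes of at least 2-fold were counted on log2(TPM + 1) too. They were found upward in 4 of the set, Perp, Cdkn1a, Ddit4 and Pmaip1, beside 6.01% of all tested genes, and downward in 1, Trp73, beside 7.89%. With median-ratio scaling in place of TPM as deposited, 19 were called higher and 6 lower. The median was then 0.22 for the set and 0.01 for all tested genes. The share of higher calls among called genes went from 60.4% to 49.9% over all genes, and from 81.5% to 76% in the set.

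Fewer of the set were called in dCD, and fewer genes of the whole table were called too. In dCD minus WT, 15 of 31 were higher (48.4%), beside 28.9% of all tested genes, and 7 lower (22.6%), beside 29.5%. The medians were 0.10 for the set and -0.01 for all tested genes. At least 2-fold higher were 4 of the set, Perp, Plk2, Pmaip1 and Ddit4, beside 4.62%, and at least 2-fold lower were 0 of the set, beside 2.32%. Both comparisons use the same WT libraries, so their values are given side by side and are not independent of each other.

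**Figure D2:**
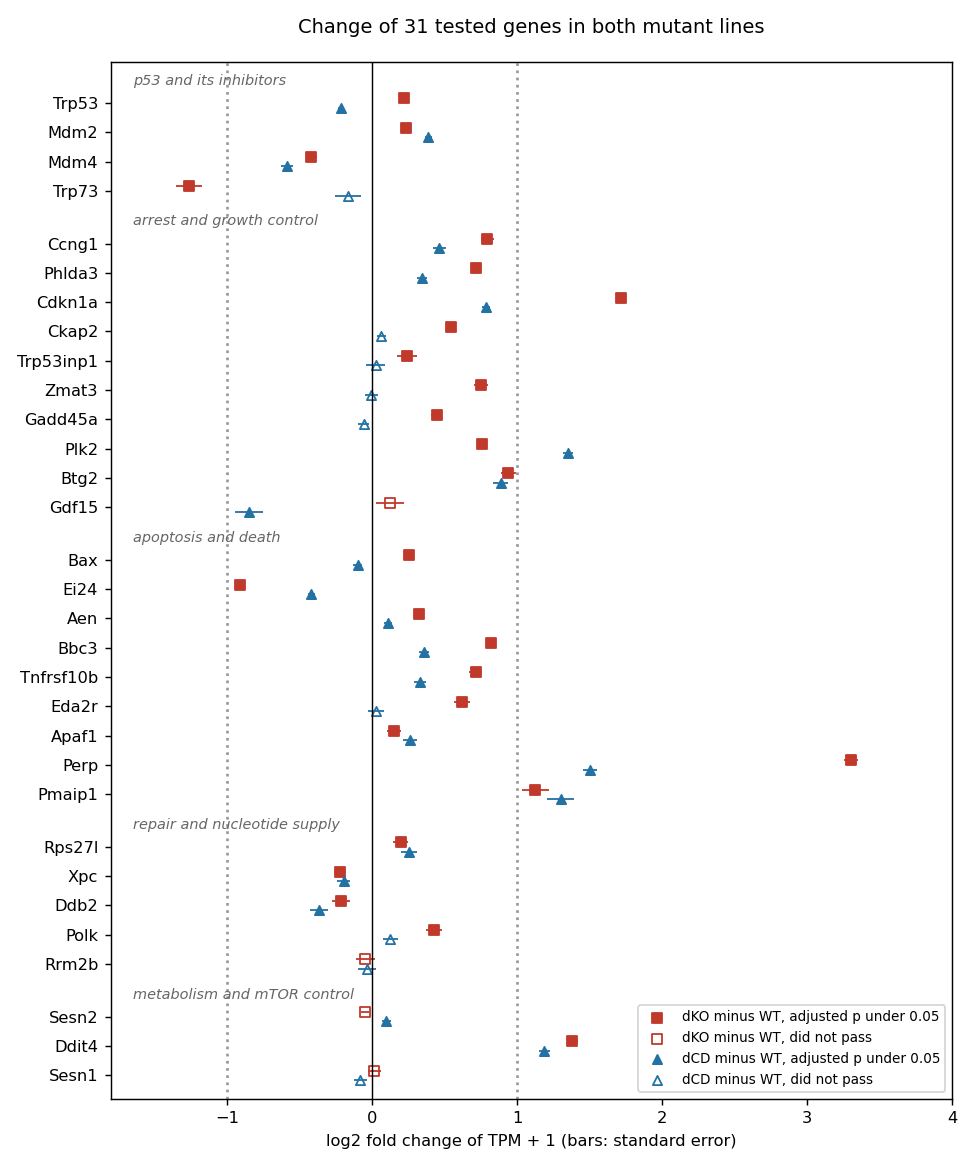
Log2 fold change of TPM + 1 with its standard error for the 31 tested genes in dKO minus WT (squares) and dCD minus WT (triangles), filled where the adjusted p passed and open where it did not, with dotted lines at a 2-fold change. Perp has the largest rise in both (3.30 and 1.50), and Trp73 the largest fall in dKO (-1.26).

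Directly compared, the knockout and the catalytically deficient line also differed at genes of the set. In dKO minus dCD, 18 of 31 were higher in dKO (58.1%), beside 42.3% of all tested genes, and 5 lower (16.1%), beside 27%. Only Perp was at least 2-fold higher in dKO, beside 3.6%, and only Trp73 at least 2-fold lower, beside 7.36%. Gdf15, at 0.97 on log2(TPM + 1), passed 2-fold without dKO replicate 2 (1.05) or dCD replicate 1 and with a pseudocount of 0.1 (1.04). In TPM without a pseudocount, the dKO mean of Gdf15 was 2.07-fold its dCD mean. The medians were 0.21 for the set and 0.10 for all tested genes. Median-ratio scaling gave 15 higher and 9 lower, with a median of 0.11 for the set and 0.00 for all tested genes. It moved the share of higher calls among called genes from 61% to 48.9% over all genes, and from 78.3% to 62.5% in the set.

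**Figure D3:**
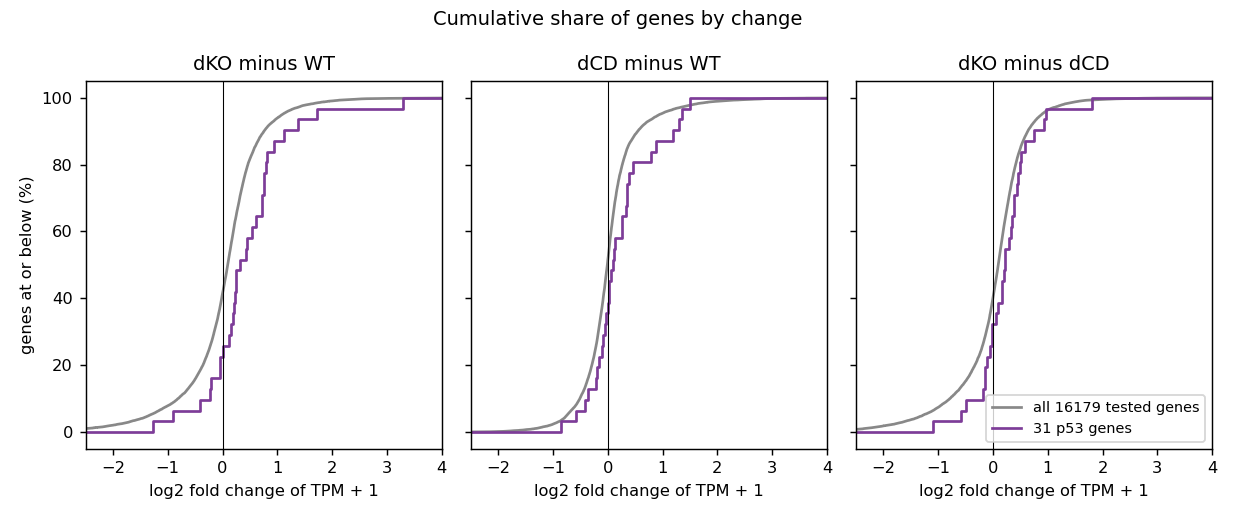
Cumulative share of genes (%) by log2 fold change for the 31 genes of the set (steps) and all 16179 tested genes (smooth line) in the 3 comparisons, with the tails of all genes beyond the axis not shown. The step curve lies to the right of the smooth one through the middle of each panel, with medians of 0.32 against 0.10, 0.10 against -0.01 and 0.21 against 0.10.

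Trp53 itself moved in opposite directions in the mutant lines. It measured 294, 291 and 279.7 TPM in WT, 333, 336 and 337 in dKO, and 245, 246 and 253 in dCD. The 3 lines did not overlap, dKO being the highest and dCD the lowest. The log2 fold change was 0.22 ± 0.0234 (SE) in dKO (limma adjusted p = 1.14e-05) and -0.21 in dCD (adjusted p = 2.36e-05), and the direct difference was 0.43 (adjusted p = 7.19e-08). Under median-ratio scaling the dKO value was 0.12 and on recovered reads with voom 0.11, each still called. Trp53 overlaps Wrap53 on the opposite strand, and whether counting used strand is not given in the sources used here.

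The p53 inhibitors went separate ways. Mdm2, the ubiquitin ligase of p53, measured 67.5, 64.5 and 65.7 TPM in WT, 77.7, 76.5 and 78.9 in dKO, and 87.4, 87.0 and 85.3 in dCD. It was thus highest in dCD, with log2 fold changes of 0.23 in dKO (limma adjusted p = 1.29e-05) and 0.39 in dCD (adjusted p = 5.62e-07). The dKO minus dCD value for Mdm2 was -0.15 (adjusted p = 0.000322). Median-ratio scaling and voom gave Mdm2 0.13 and 0.14 in dKO minus WT and -0.26 and -0.27 in dKO minus dCD, all still called. Mdm4, which blocks the activation domain of p53, measured 59.6, 59.0 and 62.8 TPM in WT, 43.9, 44.3 and 46.8 in dKO, and 41.5, 38.4 and 40.0 in dCD. Every mutant library lay below every WT library, with log2 fold changes of -0.42 (adjusted p = 4.08e-06) and -0.59 (adjusted p = 6.54e-07). The difference of Mdm4 between the mutants, 0.17 (adjusted p = 0.0032), was no longer called under median-ratio scaling (0.06, adjusted p = 0.128) or voom (0.06, adjusted p = 0.0937).

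Trp73 encodes p73, a relative of p53 that binds similar sequences. It measured 3.23, 3.28 and 3.49 TPM in WT, 0.770, 0.932 and 0.729 in dKO, and 2.56, 2.85 and 3.17 in dCD. The dKO mean was 4.12-fold lower than the WT mean, and the log2 fold change -1.26 ± 0.0896 (SE, limma adjusted p = 4.7e-07). In dCD all libraries also lay below WT, but the change of -0.17 did not pass (adjusted p = 0.134). dKO was lower than dCD by -1.09 (adjusted p = 1.75e-06). At this low level the pseudocount matters: the dKO change was -1.92 with a pseudocount of 0.1 and -2.12 with voom on reads, the difference from dCD was -1.70 and -1.94, and a minimum of 5 TPM left Trp73 untested.

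The genes grouped as arrest and growth control, all except Gdf15, rose in dKO. The group is a list by role and also holds Ckap2, a spindle protein. Of 10 tested, 9 were called higher and 0 lower in dKO, beside 43.4% and 28.4% of all tested genes, with a median of 0.73. In dCD 5 were higher and 1 lower, beside 28.9% and 29.5%, with a median of 0.20. Their summed level was 579 to 596 TPM in WT, 1075 to 1092 in dKO and 767 to 789 in dCD. Cdkn1a, the p21 inhibitor of cyclin-dependent kinases, gave the largest rise of the group in dKO, and in dCD Plk2 and Btg2 rose more. It measured 91.6, 88.5 and 92.4 TPM in WT, 305, 298.4 and 298.5 in dKO, and 159.8, 151 and 162 in dCD. The lines were fully separated, with the dCD libraries between WT and dKO. The dKO mean was 3.31-fold and the dCD mean 1.73-fold the WT mean. On log2(TPM + 1) the changes were 1.72 ± 0.0290 (SE, limma adjusted p = 1.54e-11) and 0.79 (adjusted p = 8.43e-09), and the difference between the mutants was 0.93 (adjusted p = 1.18e-09).

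Plk2, a polo-like kinase induced by p53, was the arrest gene with the opposite order of mutants. It measured 21.1, 20.49 and 20.35 TPM in WT, 34.9, 36.9 and 35.2 in dKO, and 54.6, 55.1 and 52.8 in dCD. All dCD libraries exceeded all dKO libraries, which in turn exceeded all WT libraries. The log2 fold change was 0.76 ± 0.0329 (SE) in dKO (limma adjusted p = 1.04e-08) and 1.35 in dCD (adjusted p = 5.21e-10), with dKO minus dCD at -0.59 (adjusted p = 9.07e-08). Btg2, an antiproliferative factor, rose from a mean of 20.03 TPM to 39.4 in dKO and 37.9 in dCD. Its change was 0.94 and 0.89, and the mutants' libraries overlapped, with a difference of 0.05 ± 0.0516 (SE, adjusted p = 0.417).

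Of the other genes in the arrest and growth control group, some rose in both mutants and some were called in one. Ccng1 (cyclin G1, which acts with the phosphatase that modifies Mdm2) rose from a mean of 137 TPM to 239 and 190.4, changes of 0.79 and 0.47. Phlda3, an inhibitor of Akt signalling, rose from 101 to 167 and 128 TPM, changes of 0.72 and 0.34. Both were also higher in dKO than in dCD, by 0.33 and 0.37. Zmat3, an RNA-binding regulator of splicing, rose by 0.75 in dKO, from 46.7 to 79.3 TPM, and stood at 46.7 TPM in dCD (limma adjusted p = 0.951). Gadd45a, a stress sensor that binds cell cycle and repair proteins, rose by 0.45 in dKO and measured -0.06 in dCD (adjusted p = 0.238). Ckap2, a spindle protein, rose by 0.55 in dKO and measured 0.06 in dCD (adjusted p = 0.101; called without dCD replicate 3, 0.09, adjusted p = 0.0138). The direct dKO minus dCD differences passed for Zmat3 (0.75), Gadd45a (0.50) and Ckap2 (0.48).

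Gdf15, a secreted stress-response factor, and Trp53inp1, a nuclear cofactor of p53, stood apart from these. Gdf15 fell in dCD, from a mean of 18.03 to 9.53 TPM (-0.85, limma adjusted p = 3.58e-05), and its dKO value was 0.13 (adjusted p = 0.272). All 3 dCD libraries lay below all other libraries, and dKO exceeded dCD by 0.97 (adjusted p = 8.28e-06). Trp53inp1 changed by 0.24 in dKO (adjusted p = 0.00745), but by 0.14 under median-ratio scaling (adjusted p = 0.0654), and by 0.03 in dCD (adjusted p = 0.76). Its dKO minus dCD value, 0.22 (adjusted p = 0.0143), was not called without dKO replicate 3 (0.18, adjusted p = 0.0537) or dCD replicate 3 (0.17, adjusted p = 0.058).

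**Figure D4:**
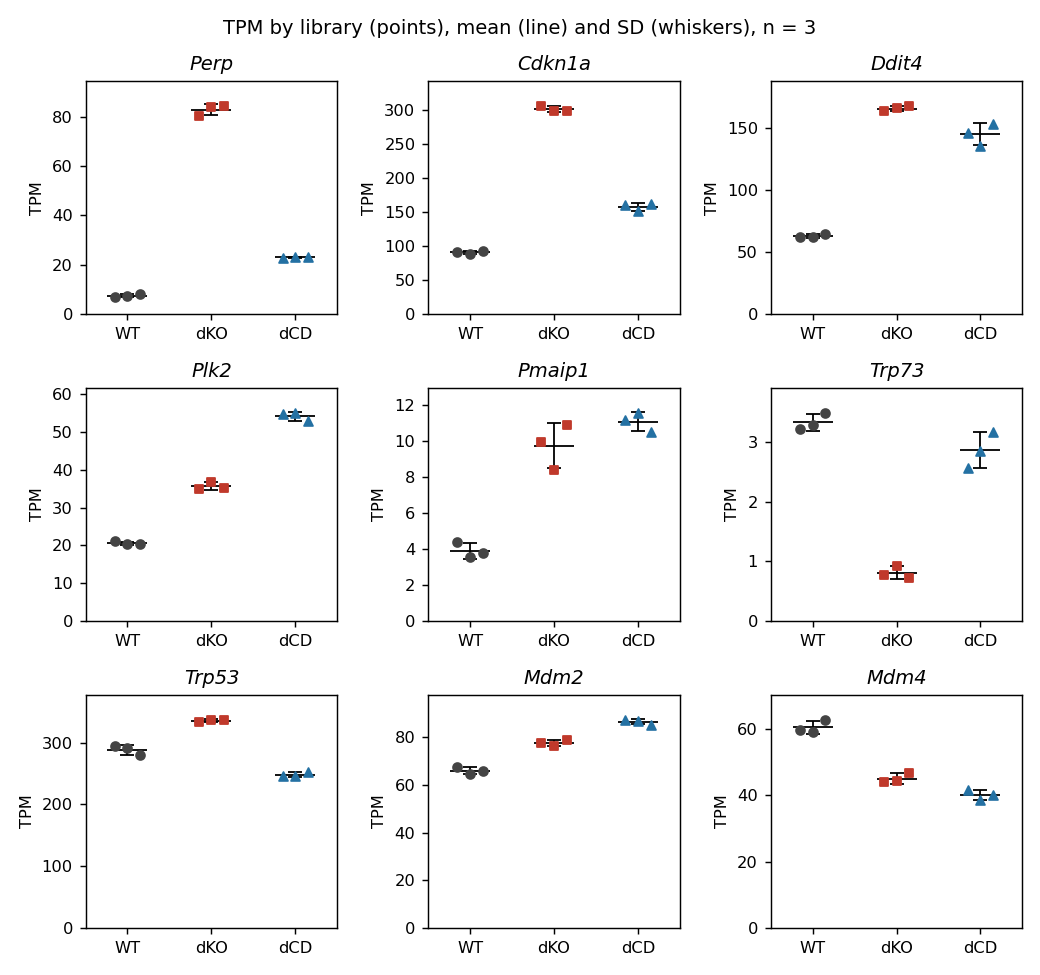
TPM of 9 genes by line; points are libraries, lines the means and whiskers the standard deviation, n = 3, with each axis starting at 0. Perp and Cdkn1a order as WT, dCD, dKO, Plk2 and Mdm2 as WT, dKO, dCD, and Trp53 as dCD, WT, dKO.

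Perp carried the largest change of the apoptosis genes and of the whole set. It encodes a tetraspan membrane protein of desmosomes that is also a p53 effector in cell death. Perp stood at 7.10, 7.25 and 8.18 TPM in WT, 80.4, 83.9 and 84.3 in dKO, and 22.7, 23.0 and 23.3 in dCD. No library of one line came near those of another. The mean TPM was 11.03-fold the WT mean in dKO and 3.07-fold in dCD. On log2(TPM + 1) the changes were 3.30 ± 0.0478 (SE, limma adjusted p = 6.02e-12) and 1.50 (adjusted p = 3.21e-09). The direct difference was 1.80 (adjusted p = 3.7e-10).

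The apoptosis group as a whole had 8 genes higher and 1 lower of 9 tested in dKO, beside 43.4% and 28.4% of all tested genes, with a median of 0.62. In dCD 6 were higher and 2 lower, beside 28.9% and 29.5%, with a median of 0.26. Summed over its 10 genes, its level was 584 to 608 TPM in WT, 755 to 764 in dKO and 597 to 603 in dCD. Pmaip1 (Noxa), a BH3-only protein that neutralises anti-apoptotic Bcl2 relatives, measured 4.42, 3.56 and 3.80 TPM in WT, 9.96, 8.41 and 10.9 in dKO, and 11.2, 11.6 and 10.5 in dCD. Every mutant library exceeded every WT library, and the mutants overlapped. Its changes were 1.13 ± 0.0936 (SE, limma adjusted p = 1.59e-06) and 1.30 (adjusted p = 1.13e-06). The dKO minus dCD value of -0.17 (adjusted p = 0.122) passed under median-ratio scaling (-0.27, adjusted p = 0.0243), with voom (-0.30, adjusted p = 0.00224) and without dKO replicate 3 (-0.25, adjusted p = 0.0401). Bbc3 (Puma), another BH3-only protein, rose from a mean of 36.1 TPM to 64.3 in dKO and 46.5 in dCD, changes of 0.82 and 0.36. Noxa and Puma thus differed in which mutant had the higher mean.

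Bax, the pore-forming effector of the mitochondrial pathway, shared the split of Trp53. Its libraries measured 281, 270.1 and 258 TPM in WT, 323, 318 and 323 in dKO, and 249.7, 253 and 251 in dCD. dKO lay above WT and dCD below it, without overlap, although the dCD and WT libraries came close. The log2 fold changes were 0.25 ± 0.0287 (SE, limma adjusted p = 1.73e-05) and -0.10 (adjusted p = 0.0127), with a direct difference of 0.35 (adjusted p = 1.61e-06). Under both median-ratio scaling and voom the dKO change of Bax was 0.15, still called. Ei24, an endoplasmic reticulum protein first described as induced by p53, fell in both. Its mean was 114 TPM in WT, 60.4 in dKO and 85.5 in dCD, changes of -0.91 ± 0.0238 (SE, adjusted p = 2.77e-10) and -0.42 (adjusted p = 2e-07). With median-ratio scaling or voom the dKO fall of Ei24 passed 2-fold (-1.01 and -1.03).

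The receptors Tnfrsf10b and Eda2r both rose in dKO. Tnfrsf10b, the receptor of Trail, went from a mean of 35.5 TPM to 58.8 in dKO and 44.8 in dCD, changes of 0.71 and 0.33. Eda2r, a receptor of ectodysplasin, rose by 0.62 in dKO and stood at 0.03 in dCD (limma adjusted p = 0.681), with a direct difference of 0.59 (adjusted p = 4.63e-06). Aen, a nuclease that degrades DNA during apoptosis, rose by 0.32 in dKO and 0.11 in dCD (adjusted p = 0.0089). Apaf1, the scaffold of the apoptosome, rose by 0.26 in dCD (adjusted p = 0.000955). Its dKO change of 0.15 (adjusted p = 0.0162) was not called without WT replicate 2 (adjusted p = 0.0646), dKO replicate 2 (adjusted p = 0.0514) or dKO replicate 3 (adjusted p = 0.0662), nor under median-ratio scaling (0.05, adjusted p = 0.298) or voom (0.07, adjusted p = 0.155).

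Of 5 tested repair genes, 2 were higher and 2 lower in dKO, beside 43.4% and 28.4% of all tested genes, with a median of -0.05. In dCD 1 was higher and 2 lower, beside 28.9% and 29.5%, with a median of -0.03. With 5 genes, such counts lie near those shares. Xpc and Ddb2, which recognise damage in nucleotide excision repair, fell in both mutants. Xpc changed by -0.22 in dKO (limma adjusted p = 0.00102) and -0.20 in dCD (adjusted p = 0.00315), and Ddb2 by -0.21 (adjusted p = 0.0117) and -0.37 (adjusted p = 0.000617). On recovered reads with voom the dKO fall of Ddb2 was -0.33. Polk, a translesion polymerase, rose by 0.43 in dKO (adjusted p = 4.77e-05). In dCD its value was 0.13 (adjusted p = 0.0709), which passed without dCD replicate 3 (0.17, adjusted p = 0.0235). Rrm2b, the p53-inducible subunit of ribonucleotide reductase, averaged 4.97, 4.77 and 4.82 TPM in WT, dKO and dCD, with changes of -0.05 ± 0.0651 (SE, adjusted p = 0.542) and -0.03 (adjusted p = 0.678).

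Rps27l, a ribosomal protein induced by p53, measured 425, 442 and 460.5 TPM in WT, 511, 513 and 497 in dKO, and 514, 580.4 and 491 in dCD. Every mutant library exceeded every WT library, with changes of 0.20 (limma adjusted p = 0.00726) and 0.25 (adjusted p = 0.0023). In dKO the call did not hold under median-ratio scaling (0.09, adjusted p = 0.17) or voom (0.10, adjusted p = 0.0517). Rps27l has a close paralogue, Rps27, and how reads common to the pair were counted is not given in the sources used here.

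Among the metabolic targets, Ddit4 rose in both mutants, and the sestrins measured at most 0.10 from WT on the log2 scale. Ddit4 (Redd1), an inhibitor of mTOR complex 1 that also answers to hypoxia and glucocorticoids, measured 62.1, 62.3 and 64.6 TPM in WT, 163, 166 and 168 in dKO, and 146, 136 and 154 in dCD. Mutant and WT libraries were far apart. Its changes were 1.38 ± 0.0396 (SE, limma adjusted p = 5.22e-10) and 1.19 (adjusted p = 4.27e-09). The dKO minus dCD value for Ddit4, 0.19 (adjusted p = 0.00143), was not called under median-ratio scaling (0.09, adjusted p = 0.066) or voom (0.07, adjusted p = 0.0689). Sesn1 and Sesn2 restrain mTOR complex 1 in response to stress and leucine. Sesn1 measured 0.02 in dKO (adjusted p = 0.773) and -0.08 in dCD (adjusted p = 0.148; called without WT replicate 2, -0.13, adjusted p = 0.0247). Sesn2 measured -0.05 in dKO (adjusted p = 0.172), called lower under median-ratio scaling (-0.15, adjusted p = 0.0012) and voom (-0.15, adjusted p = 0.000143). In dCD Sesn2 was higher by 0.10 (adjusted p = 0.0167), but not called without WT replicate 1 (adjusted p = 0.0554) or dCD replicate 3 (adjusted p = 0.0609).

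The genes with and without a half-site near the start were set side by side as a description. In dKO minus WT, 10 of the 12 genes with one were higher and 1 lower, beside 43.4% and 28.4% of all tested genes, with a median of 0.29. Of the 11 tested genes with a window and no half-site, 7 were higher and 2 lower, with a median of 0.62. In dCD minus WT, where all tested genes gave 28.9% higher and 29.5% lower, the counts were 5 higher and 3 lower of 12, with a median of 0.09, and 7 higher and 2 lower of 11, with a median of 0.26. Cdkn1a, with the 2 runs printed above, was the gene with a half-site that rose most. Ei24, with a run 10 bases before its start, was the one that fell in dKO. Ddit4, Plk2 and Trp73 were among those with no match in the window.

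Genes on either side of p53 in the pathway were read from 3 further lists. The lists hold genes known for these roles, and their counts stand beside those of all tested genes given above. The upstream regulators were kinases, ligases, cofactors and nuclear body proteins. Of 25 tested, 13 were higher (52%) and 5 lower (20%) in dKO, beside 43.4% and 28.4% of all tested genes, with a median of 0.11 beside 0.10. In dCD 6 were higher (24%) and 7 lower (28%), beside 28.9% and 29.5%, with a median of 0.02 beside -0.01. Cdkn2a, whose Arf product inhibits Mdm2 and whose p16 product inhibits cyclin-dependent kinases, rose at least 2-fold in dKO. Its libraries held 61.8, 63.6 and 63.5 TPM in WT, 195.9, 183.5 and 190.3 in dKO, and 88.1, 87.0 and 91.1 in dCD, changes of 1.58 (limma adjusted p = 2.92e-11) and 0.49 (adjusted p = 3.13e-07). The table holds one value for the gene, so the Arf and p16 transcripts were not told apart. Pml, the scaffold of nuclear bodies that recruit p53, averaged 199.9 TPM in WT, 304 in dKO and 58.8 in dCD, changes of 0.60 (adjusted p = 3.34e-08) and -1.75 (adjusted p = 7.57e-11).

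Of 57 other tested direct targets, 30 were higher (52.6%) and 20 lower (35.1%) in dKO, beside 43.4% and 28.4% of all tested genes, with a median of 0.22 beside 0.10. In dCD 25 were higher (43.9%) and 21 lower (36.8%), beside 28.9% and 29.5%, with a median of 0.01 beside -0.01. Past 2-fold, 10 were higher and 4 lower in dKO, beside 6.01% and 7.89%, and 7 and 1 in dCD, beside 4.62% and 2.32%. Of the called genes in dKO, 60% were higher in the list and 60.4% over all genes. The largest rises in dKO were those of Thbs1, an antiangiogenic matrix protein (3.55), Igfbp3, which binds insulin-like growth factors (2.36), Sfn, a 14-3-3 protein that holds cells before mitosis (1.94), Ier5 (1.39) and Tob1, an antiproliferative relative of Btg2 (1.37). Thbs1 averaged 0.250 TPM in WT, 13.7 in dKO and 56.8 in dCD, where its change was 5.53. In dCD it was followed by Ier5 (1.73), Fas, the death receptor (1.60), and Igfbp3 (1.47). At least 2-fold lower in dKO were Gls2, a mitochondrial glutaminase (-1.39), Tigar, which limits glycolysis (-1.26), Notch1 (-1.23) and Irf5, an interferon regulatory factor (-1.11). In dCD only Ephx1, an epoxide hydrolase, was at least 2-fold lower (-1.17), and Tigar measured -0.02 (limma adjusted p = 0.668).

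The last list holds cell cycle genes that p21 is known to lower through the DREAM repressor complex. Of 30 tested, 19 were higher and 8 lower in dKO, beside 43.4% and 28.4% of all tested genes, with a median of 0.20 beside 0.10. In dCD 9 were higher and 10 lower, beside 28.9% and 29.5%, with a median of 0.03 beside -0.01. In neither comparison did one of these genes reach 2-fold.

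**Figure D5:**
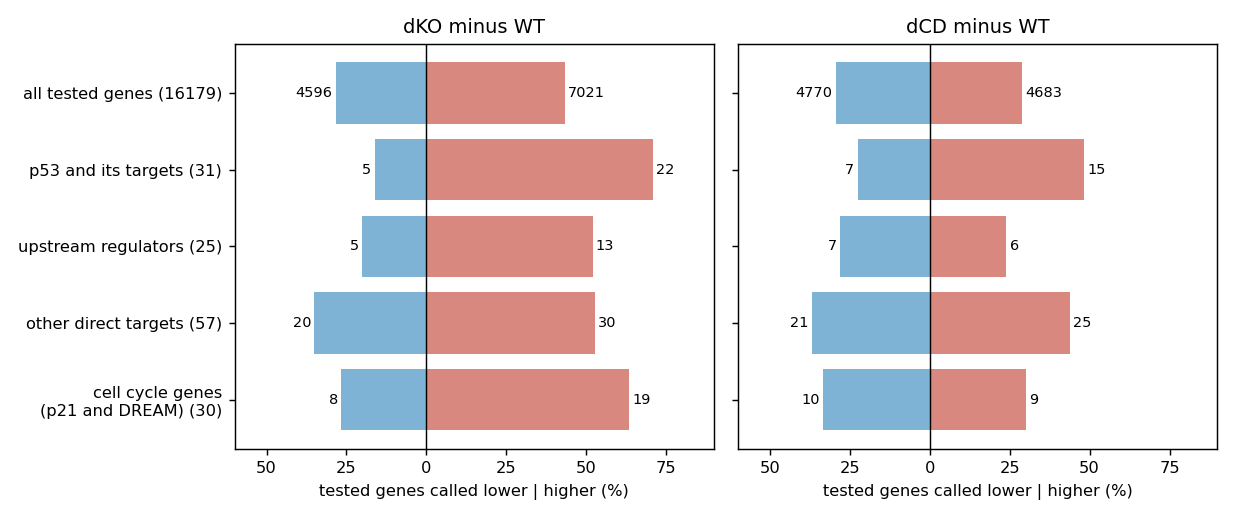
Share of tested genes called higher (right of 0) and lower (left of 0), in percent, in dKO minus WT and dCD minus WT for all tested genes, the p53 set and the 3 further pathway lists, with the number of tested genes in brackets and the count at each bar. The p53 set has 22 higher and 5 lower of 31 in dKO and 15 higher and 7 lower in dCD.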

How the data were processed

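Of 48 samples in the series, the 9 polyadenylated RNA-seq libraries were used and grouped by title; 39 other samples were not analysed here. The deposited table holds TPM per gene. HISAT2, featureCounts, DESeq2 and the build mm9 are named, per the submitters' processing notes, with versions, annotation and strand setting not given in the sources used here. Read counts were recovered from TPM and gene length: 100% of values up to 1000 reads came out whole within 0.01 reads, with 21090624 to 56249770 reads per library.

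log2(TPM + 1) was fitted with limma 3.58.1 (R 4.3.3; lmFit, contrasts.fit and eBayes with trend) over all 9 libraries, for genes with at least 1 TPM in at least 3 libraries, with two-sided p-values adjusted by Benjamini-Hochberg per contrast. A pseudocount of 1 understates changes of genes at low TPM. Replicates differed by 1.58 to 4.14 times sampling noise (chi-square per degree of freedom), so none was a copy of another. This value cannot tell separate cultures from repeated preparations of the same RNA. Genes of the set past 2-fold in any contrast, with Trp53, Mdm2, Mdm4 and Cdkn1a, are given per library; of the further lists, at most 5 past 2-fold per list, direction and contrast are named, except a gene not reported here. The genes and lists were chosen with earlier results of these data known. Cop1 and Setd8 were matched by their symbols Rfwd2 and Kmt5a. The fit was tested on simulated data. Alternatives were a pseudocount of 0.1, no minimum or 5 TPM, median-ratio scaling, voom with TMM on recovered reads, a replicate block and leaving out each library. Python 3.11.15, pandas 2.3.3, numpy 2.4.6 and matplotlib 3.10.9 were also used.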

Additional observations from a re-analysis of the deposited data

Results flagged for a closer look

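Trp53 and Bax were each called higher in dKO and lower in dCD, both against the same WT libraries, and every dKO library moved up while every dCD library moved down. The direct dKO minus dCD log2 fold change was 0.43 for Trp53 (limma adjusted p = 7.19e-08) and 0.35 for Bax (adjusted p = 1.61e-06). Under median-ratio scaling these differences were 0.33 and 0.25, and with voom on recovered reads 0.32 and 0.24, all still called.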

How the results depend on the processing

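No called value changed direction under the 15 alternatives, though values that were not called could, as that of Sesn1 in dKO minus WT did (0.02, and -0.08 with median-ratio scaling). In all, 1353 of 1389 single-gene values kept their side of the threshold, while 19 gained and 17 lost a call. The 12 genes whose calls moved were Apaf1, Ckap2, Ddb2, Ddit4, Mdm4, Pmaip1, Polk, Rps27l, Sesn1, Sesn2, Trp53inp1 and Xpc. With a pseudocount of 0.1, 2 genes in place of 1 were at least 2-fold higher in dKO minus dCD, Gdf15 (1.04) joining Perp. A minimum of 5 TPM, which dropped Trp73, left 0 genes at least 2-fold lower in dKO minus WT and 0 in dKO minus dCD. It raised the dKO minus WT median of the set to 0.43, beside 0.11 over all tested genes. Median-ratio scaling and voom each gave 2 genes at least 2-fold lower in dKO minus WT (Ei24 joining Trp73), with a median of 0.22 beside 0.01 over all tested genes. In dKO minus dCD they gave 9 genes lower in place of 5, with medians of 0.11 and 0.10 beside 0.00 and -0.00 over all tested genes. Leaving out one library gave 1 to 2 genes at least 2-fold higher in dKO minus dCD, 2 without dKO replicate 2 or dCD replicate 1, through Gdf15. Across all genes, voom gave 1311 at least 2-fold higher and 1870 lower in dKO minus WT (972 and 1277 in the TPM fit), 1149 and 698 in dCD minus WT (747 and 376), and 791 and 1916 in dKO minus dCD (583 and 1191). The corresponding counts with a pseudocount of 0.1 were 1446 and 1658, 1099 and 645, and 908 and 1691.

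Replicate numbers did not pair the libraries: deviations of same-numbered libraries correlated at -0.049 to 0.042, and 0 libraries correlated best with their own number in both other lines. A replicate block left the counts for the p53 set at 22 higher and 5 lower in dKO minus WT, 15 and 7 in dCD minus WT, and 18 and 5 in dKO minus dCD. Over all genes it gave 6969 higher and 4564 lower, 4583 and 4690, and 6768 and 4346. Depth limits Dram1 (4 to 72 reads) and Trp73 (33 to 298 reads) most.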
